A study of Homo sapiens with 32 samples.

Results

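The retinoic acid receptor genes RARA, RARB and RARG and the retinoid X receptor genes RXRA, RXRB and RXRG were followed across a series of H3K27ac ChIP-seq libraries from SK-N-BE(2)C cells. Among 92108 regions of acetylated chromatin, a region was taken as a receptor region if its nearest protein-coding start site, within 100 kb, belonged to 1 of the 6 receptor genes, or if it overlapped the body of such a gene. This gave 63 regions: 34 at RARB, 24 at RXRA, 3 at RARG and 2 at RARA. RXRB was not analysed here. No region fell to RXRG, and no peak overlapped the RXRG gene in any of the 16 libraries.

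Retinoic acid enters the nucleus and binds RARs, which sit on DNA as heterodimers with RXRs, typically at direct repeats of a short half-site. Without ligand the pair holds corepressors and histone deacetylases, and with ligand it exchanges them for coactivators, among them the acetyltransferases that place H3K27ac, a mark of active promoters and enhancers. RXRs are also the partners of many other nuclear receptors. RARB is the textbook example of a receptor gene that its own ligand induces, and retinoic acid is given to children with neuroblastoma as a differentiating agent.

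SK-N-BE(2)C is an established MYCN-amplified neuroblastoma line of adrenergic type. The 5-day treatments were DMSO, which is the solvent, 1 μM palbociclib (PB, an inhibitor of the CDK4 and CDK6 kinases), retinoic acid (RA), and PB+RA. Each of the 4 groups had 4 ChIP libraries, matched by 16 input libraries in all. All groups are the same line grown in culture, so the values describe that line. The 6 adrenergic markers examined that had a start-site region (PHOX2A, HAND2, GATA3, ISL1, TH and DBH) all had a peak there in all 4 DMSO libraries, and MYCN was not analysed here. Of the markers of other cells, 1 of 4 immune genes (CD14), 1 of 3 endothelial genes (CDH5) and 1 of 2 epithelial genes (EPCAM) did so too, and PTPRC, which marks white blood cells, had no DMSO peak. The libraries held 64516 to 104392 peaks over 104 to 167 Mb. DMSO replicate 3 had the fewest, and the RXRA results are also given without it.

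Sequences at the receptor genes are shown first because RA acts through DNA elements. The half-site was AGGTCA, or the variant AGTTCA, or as a further variant GGGTCA, or as the last variant GGTTCA. Any pair of these in the same orientation with 5 bases between them was searched for on both strands. One such element lay in a region of RARA, one in a region of RARB and one in a region of RXRA, and no RARG region held one. The elements are printed in capitals, 5′ to 3′ on the plus strand of hg19, with 6 flanking bases on each side in lower case.
RARB, chr3:25469695-25469723: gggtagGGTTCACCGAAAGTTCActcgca
RARA, chr17:38497899-38497927: caggcgAGTTCAGCGAGAGTTCAgccgca
RXRA, chr9:137267358-137267386: aaccctGGTTCATCTGAGGGTCAgcccgg
The RARB element began 53 bases upstream of the start site at 25469754 and lay in an exon of RARB transcripts that start further upstream. The RARA element lay outside protein-coding exons, 265 bases downstream of the start site at 38497640. That of RXRA lay 3777 bases upstream of the start site at 137271141, in an intron. Such an element was present in 0.204% of 78564 windows reaching 500 bases to each side of a protein-coding start site. Regions differ in length, and a long one is more likely to hold a match. Among regions within 20% of the same length, 3.81% held one for the length of the RARB region, 18.8% for RARA and 7.64% for RXRA. A match is a description of letters, not evidence of binding.

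A pair of measures was used. The concentration is the authors' mean log2 read concentration of a group in a region, which has no SD or n. The enrichment is the fold over input that MACS2 gave each broad peak, averaged over the bases of a region with bases under no peak at 0, and scaled between libraries. It has 1 value per library, and log2(enrichment + 1) was tested with limma across all 92108 regions. Differences on that scale are smaller than a fold change where the enrichment is low. A region was called at a Benjamini-Hochberg adjusted p under 0.05, which held for 10.3% of all regions in the increased and 6.65% in the decreased direction with RA, for 4.84% and 4.34% with PB, and for 18.6% and 12.4% with PB+RA.

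With RA alone, acetylation rose over RARB, RARA and RARG, and 23 of the 63 receptor regions were called increased and 3 decreased. PB alone gave 1 region called increased and 14 decreased, 13 of the latter at RXRA. With PB+RA, 13 were called increased and 15 decreased, the increased ones at RARB, RARA and RARG and the decreased ones all at RXRA. Of all regions, 18.6% were called increased and 12.4% decreased with PB+RA, so 13 of 63 is close to the former share. With RA the shares were 10.3% and 6.65%, so 3 of 63 decreased is below the latter. With PB they were 4.84% and 4.34%. To be tested, a region needed a peak in 2 libraries of some group. At RARB, which held 21 of the 23 regions increased with RA, 13 of 34 regions met that through RA alone. Of the 10 RARB regions with enough peaks in DMSO or PB, 6 were called increased with RA and 5 with PB+RA. At RXRA, 15 of 24 regions had enough peaks in PB or PB+RA. Of those, 11 were called decreased with PB and 12 with PB+RA. The choice of regions thus favours the full counts. The plot of summed enrichment shows the values at each gene in single libraries.

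**Figure D1:**
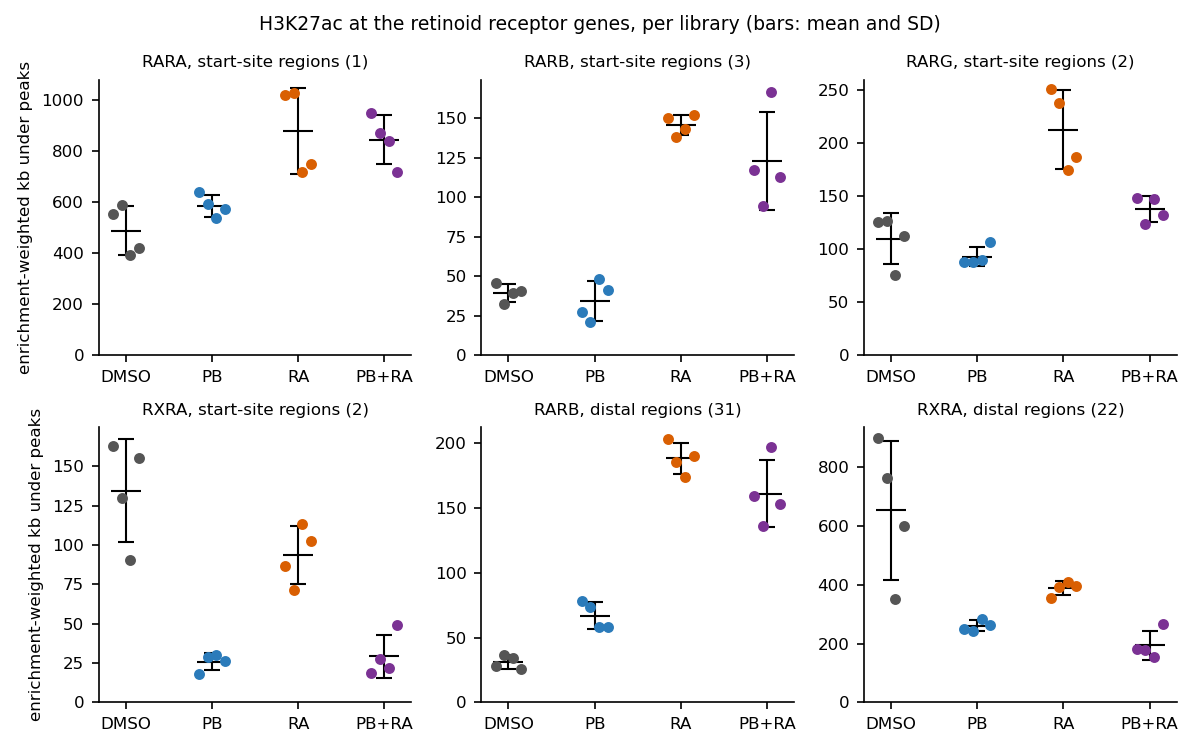
Enrichment under H3K27ac peaks summed over the start-site regions of RARA, RARB, RARG and RXRA and over the distal regions of RARB and RXRA (vertical axes: fold enrichment times kb), for each of the 4 libraries of DMSO, PB, RA and PB+RA; bars are the mean and SD. The RARB values in RA and PB+RA all lie above those in DMSO and PB, while the RXRA start-site values in PB and PB+RA (18.2 to 49.0) all lie below those in DMSO (90.4 to 163).

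RARB encodes the receptor that RA itself induces. Its annotated gene spans 910 kb (chr3:24729378-25639423, plus strand), and its 34 regions all overlap the gene body. The region at its proximal start sites, chr3:25465369-25477765, holds the element shown above. Its enrichment in the DMSO libraries was 0.209, 0.245, 0.882 and 0.625, and in PB 0.387, 0.324, 1.49 and 1.19. In RA it was 5.62, 5.00, 6.98 and 6.66, and in PB+RA 5.24, 4.78, 8.22 and 6.54. Every library with RA was thus far above every library without it, and the DMSO and PB libraries overlapped.

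The log2 difference at this region was 2.26 ± 0.23 (SE) with RA (limma, adjusted p = 3.06e-07) and 2.27 ± 0.23 with PB+RA (adjusted p = 1.28e-07). PB alone gave 0.28 (adjusted p = 0.50), and PB+RA minus RA gave 0.01 ± 0.23. The concentrations were 7.15 in DMSO, 7.68 in PB, 10.2 in RA and 10.4 in PB+RA.

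The neighbouring start-site region, chr3:25486292-25500813, was already acetylated in DMSO, with a peak in all 16 libraries. Its mean enrichment was 2.39 ± 0.386 (SD, n = 4) in DMSO, 1.52 ± 0.377 in PB, 4.99 ± 0.606 in RA and 3.01 ± 0.540 in PB+RA. It rose with RA by 0.82 (limma, adjusted p = 0.0021), but with PB+RA the difference of 0.24 was not called (adjusted p = 0.32), and PB+RA was lower than RA by -0.58 (adjusted p = 0.032). Centring in classes of GC content turned the PB+RA difference to -0.25 (adjusted p = 0.299) and made the PB difference, -0.43 without it (adjusted p = 0.128), a called decrease of -0.65 (limma, adjusted p = 0.0262). The most upstream start-site region, chr3:24870619-24872550, had peaks in 2 DMSO, 3 RA, 0 PB and 0 PB+RA libraries and was called in no comparison. Summed over the 3 start-site regions, the enrichment times length was 39.5 ± 5.68 kb in DMSO, 34.4 ± 12.5 kb in PB, 146 ± 6.27 kb in RA and 123 ± 31.0 kb in PB+RA (SD, n = 4). On those sums PB+RA minus RA was -0.28 (limma, adjusted p = 0.389), and after the same centring it was -0.74 (adjusted p = 0.0396).

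**Figure D2:**
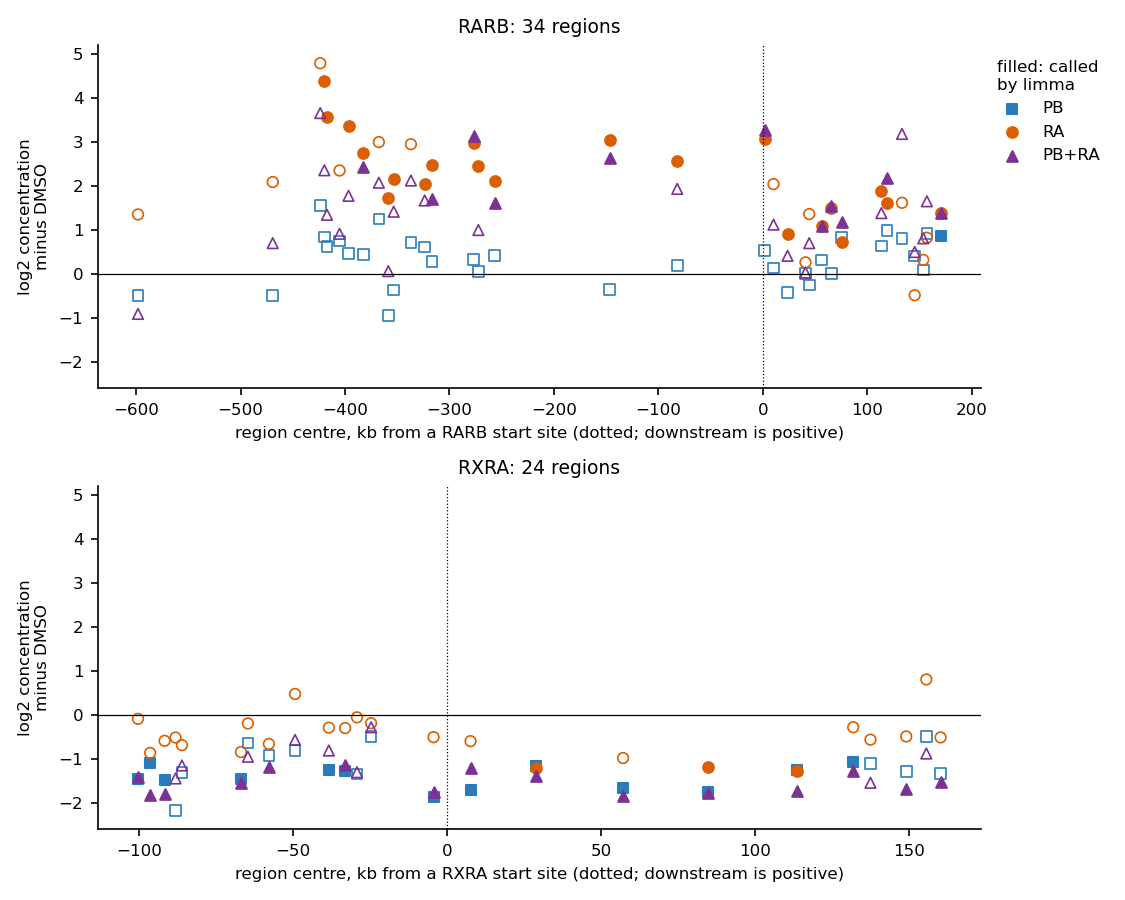
Difference in the authors' mean log2 concentration from DMSO (vertical axis) for PB, RA and PB+RA at each region of RARB (34) and RXRA (24), against the distance of the region's centre in kb from a start site of the gene (horizontal axis); filled symbols were called by limma. Every RARB region upstream of the dotted line is above 0 with RA, and no RXRA region is above 0 with PB or PB+RA. Of those 19 upstream RARB regions, 11 entered the set through peaks in RA alone, which favours RA. Of the 24 RXRA regions, 15 had enough peaks in PB or PB+RA, and the rest entered through DMSO or RA, which favours those groups.

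Upstream of the induced start-site region, 19 regions lay between 24870619 and 25388610 on chromosome 3, one at the first start site and the others in introns. The split was chosen after the values were seen. A region had to have a peak in 2 libraries of some group to be tested, and 11 of these 19 met that through RA alone, so calls among them are not read as results. No DMSO library had a peak at 15 of the 19, no PB library at 15 and no PB+RA library at 10. The concentration, which does not need a peak in the group, was above that in DMSO at all 19 with RA, by 1.35 to 4.80 with a median of 2.57, and the median with PB+RA was 1.70. At the 15 regions from the induced start site to the 3′ end of the gene these medians were 1.36 and 1.17. Only 1 of the 19 upstream regions had enough peaks in DMSO or PB, so the choice of regions favours RA in the concentration as well. The count of 19 and the higher upstream medians are thus a description, not a test.

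Over the whole gene, 21 of 34 RARB regions were called increased with RA and 11 with PB+RA, where 10.3% and 18.6% of all regions were. Of the 34, 13 entered through peaks in RA alone. Of the 10 that had enough peaks in DMSO or PB, 6 were called increased with RA and 5 with PB+RA. A peak in all 4 RA libraries and no DMSO library was seen at 11 of the 34, against 2.92% of all regions. At 3 of them no PB+RA library had a peak either (4 of 4 RA and 0 of 4 PB+RA), against 0.837% of all regions. After the values were centred within classes of GC content, 15 regions were called with RA and 6 with PB+RA. The shares of all regions called after this centring are not given here. Against the shares without it, 15 of 34 is above 10.3%, and 6 of 34 is not above 18.6%. With PB alone, 1 RARB region was called increased, chr3:25632790-25647424 over the 3′ end of the gene, where the nearest start site is that of the neighbouring gene TOP2B, which encodes a topoisomerase. There the enrichment was 1.23 ± 0.443 in DMSO, 2.59 ± 0.432 in PB, 4.01 ± 0.548 in RA and 4.15 ± 0.303 in PB+RA (SD, n = 4). This PB call (0.70, limma, adjusted p = 0.017) was lost when DMSO replicate 4, PB replicate 1 or PB replicate 2 was left out, and with no centring of libraries, with shares of bases, with the compared libraries alone and in GC classes, where another RARB region was called decreased instead.

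The largest increases in concentration at distal RARB regions were with RA. At chr3:25048973-25051069, in an intron, the RA libraries had enrichments of 3.65, 2.89, 2.38 and 2.06, and no library of the other groups had a peak. It was in the set through its RA peaks alone and was named for its increase, so no test is given. The concentration was 2.16 in DMSO, 3.002 in PB, 6.55 in RA and 4.52 in PB+RA, and PB+RA thus had reads there without a called peak. At chr3:25045629-25046536 only RA replicates 1 and 4 had a peak, and the region was not called although its concentration was higher than in DMSO by 4.80 with RA and by 3.66 with PB+RA.

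The largest decreases at distal RARB regions were seen with PB and were small. The concentration at chr3:25110222-25112362 was lower by -0.95 with PB and higher by 1.73 with RA, where all 4 libraries had a peak (1.08 to 3.59) and no other library did. At chr3:25000391-25000744 the differences were -0.49 and 2.09, and 2 RA libraries alone had a peak. Another intronic region, chr3:25190625-25195428, was named after its values were seen. It rose from 0.140 ± 0.280 in DMSO to 3.89 ± 0.694 in RA and 3.89 ± 0.175 in PB+RA (SD, n = 4), and PB+RA minus RA was 0.01 ± 0.24 (limma, adjusted p = 1). The intronic regions gained with RA thus included one with no peak in PB+RA and one with a peak in every PB+RA library.

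**Figure D3:**
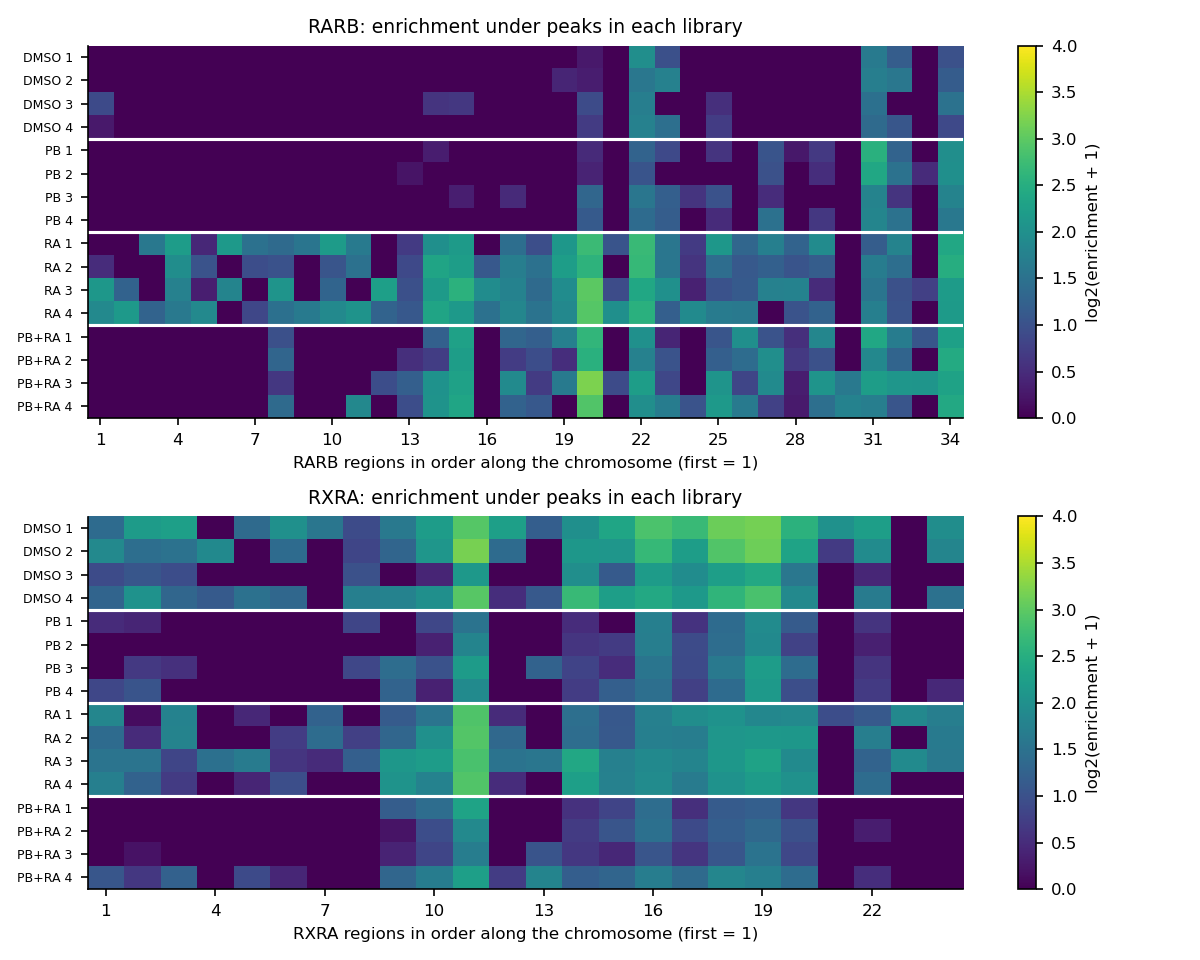
Enrichment under peaks, as log2(enrichment + 1) on the colour scale, in each of the 16 libraries (rows, white lines between groups) at the 34 RARB regions and the 24 RXRA regions (columns, in order along the chromosome). At RARB the upstream columns on the left are filled mostly in RA, and at RXRA the DMSO and RA rows are brighter than the PB and PB+RA rows.

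Summed over the 31 distal RARB regions, the enrichment-weighted length was 27.9, 36.7, 34.3 and 25.4 kb in DMSO and 78.02, 73.7, 58.1 and 57.9 kb in PB. It was 203, 186, 174 and 190 kb in RA and 159, 136, 197 and 153 kb in PB+RA. PB lay above all of DMSO, RA and PB+RA lay above all of PB, and RA and PB+RA overlapped. The sum includes 5 regions in the RARB body whose nearest start site is that of TOP2B. They held 26.9 ± 4.94 kb in DMSO, 58.0 ± 12.2 kb in PB, 68.5 ± 10.5 kb in RA and 81.8 ± 10.1 kb in PB+RA (SD, n = 4), and thus most of the gain with PB. The other 26 held 4.22 ± 1.91, 8.98 ± 3.07, 120 ± 11.1 and 79.4 ± 19.8 kb. In a limma fit over the start-site and distal sums of all genes (24226 in all), the log2 difference was 2.57 ± 0.16 with RA (adjusted p = 2.74e-09), 1.08 ± 0.16 with PB (adjusted p = 0.00025) and 2.34 ± 0.16 with PB+RA (adjusted p = 6.36e-09). The sum holds 13 regions that entered the set through peaks in RA alone. Only 10 of the 34 RARB regions had enough peaks in DMSO or PB. No fit was made without the regions chosen in this way, so the RA and PB+RA differences are not read as tests.

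The effect of PB on these distal sums differed with and without RA when all 31 regions were summed: the interaction was -1.32 ± 0.22 (limma, adjusted p = 0.0066). It was not called without the 5 regions nearest TOP2B (-1.58, adjusted p = 0.0777), with no centring of libraries (-1.06, adjusted p = 0.28) or when bases were counted with no enrichment (-0.98, adjusted p = 0.12). The sum also holds 13 regions that entered through peaks in RA alone. They favour RA over PB+RA, so the interaction is not read as a test. Without the 5 regions nearest TOP2B the increase with PB was 0.96 (adjusted p = 0.035). With all 31 it lost its call with no centring (0.77, adjusted p = 0.050), with bases alone (0.55, adjusted p = 0.076) and after centring in GC classes (0.44, adjusted p = 0.065). No single receptor region was called for the interaction by limma, 7 had an unadjusted p under 0.05, and 0.202% of all regions were called in either direction.

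RARA encodes the receptor that most cells express. It had a single broad domain of 58834 bases, chr17:38456768-38515601, that covered the whole gene (chr17:38465432-38513895, plus strand) and all of its start sites. The enrichment was 9.19, 9.95, 7.81 and 7.47 in DMSO and 10.2, 9.35, 8.92 and 9.04 in PB, which overlapped. It was 17.3, 17.8, 13.1 and 13.2 in RA and 14.999, 14.7, 13.3 and 13.4 in PB+RA, all above DMSO and PB.

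The domain rose with RA by 0.76 ± 0.15 (limma, adjusted p = 0.00065) and with PB+RA by 0.66 ± 0.15 (adjusted p = 0.0016), and PB+RA was above PB by 0.54 (adjusted p = 0.013). PB gave 0.12 (adjusted p = 0.72), or -0.03 with no centring of libraries, and PB+RA minus RA gave -0.11 (adjusted p = 0.67). The share of its bases under peaks was high in every group, and on that measure the difference was 0.07 with RA (adjusted p = 0.21) and 0.06 with PB+RA (adjusted p = 0.29). The other RARA region, chr17:38455622-38456583, lay 8849 bases upstream of the gene's first start site and had a peak in 1 DMSO, 1 PB, 2 RA and 0 PB+RA libraries, with a difference in concentration of -0.96 with PB+RA.

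RARG encodes the third retinoic acid receptor and lies at chr12:53604351-53626764 on the minus strand. The region over its internal start sites, chr12:53606616-53622015, had enrichments of 5.14, 5.65, 3.85 and 4.63 in DMSO, 3.92, 3.89, 3.97 and 4.57 in PB, 12.8, 12.4, 9.18 and 9.68 in RA, and 7.39, 6.43, 6.83 and 7.46 in PB+RA. The PB+RA libraries lay between the others, above all of DMSO and below all of RA. The rise was 1.04 ± 0.16 with RA (limma, adjusted p = 4.40e-05) and 0.47 ± 0.16 with PB+RA (adjusted p = 0.026), and PB+RA was lower than RA by -0.57 (adjusted p = 0.0185). The call with PB+RA was lost without DMSO replicate 3 (0.39, adjusted p = 0.051), without DMSO replicate 4 (0.46, adjusted p = 0.052) and without PB+RA replicate 1 (0.45, adjusted p = 0.057). It was also lost with no centring of libraries (0.42, adjusted p = 0.124), with shares of bases (0.04, adjusted p = 0.731) and with the compared libraries alone (adjusted p = 0.061).

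The region at the upstream start sites of RARG, chr12:53622413-53630529, was called decreased with PB. Its enrichment was 4.82 ± 0.941 in DMSO, 2.99 ± 0.446 in PB, 6.04 ± 0.490 in RA and 3.34 ± 0.542 in PB+RA (SD, n = 4). RA gave 0.29 (limma, adjusted p = 0.26), PB -0.54 (adjusted p = 0.048) and PB+RA against RA -0.70 (adjusted p = 0.0079). The PB call was lost when any 1 of 6 libraries was left out (DMSO replicates 1, 2 and 4 and PB replicates 1, 2 and 3, -0.47 to -0.56), and after centring in GC classes (-0.17, adjusted p = 0.61). The start-site sum of RARG rose with RA by 0.96 (limma, adjusted p = 0.00051), and PB+RA was below RA by -0.61 (adjusted p = 0.0198). After centring in GC classes the latter was -0.22 (adjusted p = 0.406), and it also lost its call without RA replicate 1, RA replicate 2 or PB+RA replicate 2. The third region, chr12:53604377-53605768, lay over the 3′ end of RARG, was nearest to a start site of the integrin gene ITGB7, and had a peak in 2 DMSO, 2 PB, 2 RA and 0 PB+RA libraries. Its concentration differed from DMSO by 0.05 with RA and -0.80 with PB+RA.

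RXRA encodes the retinoid X receptor, the common partner of the RARs. The gene lies at chr9:137208944-137332431 on the plus strand, and 6 of its 24 regions overlapped the gene body, while the others lay up to 100 kb from its nearest start site. The region at its first start site, chr9:137205393-137222250, had enrichments of 2.99, 3.32, 2.92 and 5.51 in DMSO and 0.422, 0.535, 0.754 and 0.631 in PB. It had 1.75, 1.70, 4.28 and 3.79 in RA and 0.492, 0.618, 0.568 and 1.29 in PB+RA. DMSO and RA overlapped, PB and PB+RA overlapped, and neither of the first pair overlapped either of the second.

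At this region the log2 difference was -1.53 ± 0.26 with PB (limma, adjusted p = 0.00072), -1.42 ± 0.26 with PB+RA (adjusted p = 0.00018) and -0.31 ± 0.26 with RA (adjusted p = 0.465). PB+RA was below RA by -1.11 (adjusted p = 0.0058) and differed from PB by 0.12 ± 0.26 (adjusted p = 0.87). The concentrations were 9.74 in DMSO, 7.87 in PB, 9.24 in RA and 7.98 in PB+RA. The region at the internal start sites, chr9:137265467-137285211, which holds the element shown above, gave -1.48 with PB (adjusted p = 0.00044), -1.40 with PB+RA (adjusted p = 6.58e-05) and -0.48 with RA (adjusted p = 0.15). Of the 3 regions with a matching repeat, those of RARB and RARA were called increased with RA and that of RXRA was not. The RARG region from 53606616 and the RARB region from 25486292, which hold no such repeat, were called increased with RA as well.

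Across the locus, the concentration was below that in DMSO at 24 of 24 regions in PB (median -1.28), at 24 of 24 in PB+RA (median -1.41) and at 22 of 24 in RA (median -0.51). The medians over all regions were -0.09, -0.02 and -0.01. Of all 92108 regions, 41246 were above DMSO in PB, 45478 in PB+RA and 45588 in RA. Differences past 0.5 on this scale numbered 22 lower and 0 higher with PB, 23 and 0 with PB+RA, and 14 and 1 with RA. Of all regions, 26.8% were lower and 21% higher by that much with PB, 31.7% and 32.1% with PB+RA, and 21.5% and 27.9% with RA. At RARB the same counts were 1 lower and 14 higher with PB, 1 and 29 with PB+RA, and 0 and 31 with RA. Of the 34 RARB regions, 13 entered the set through peaks in RA alone, which favours RA. Of the 24 RXRA regions, 15 had enough peaks in PB or PB+RA. The rest entered through DMSO or RA, which favours lower values in PB and PB+RA, so the RXRA counts are a description.

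By limma, 13 of the 24 RXRA regions were called decreased with PB, 15 with PB+RA and 3 with RA. Of the 15 that had enough peaks in PB or PB+RA to be tested, 11 were called decreased with PB and 12 with PB+RA. Without DMSO replicate 3 the counts over all 24 were 16, 17 and 4. The count with PB was 8 without DMSO replicate 1 or PB replicate 2 and 9 without DMSO replicate 2, DMSO replicate 4 or PB replicate 1. RXRA regions were rich in G and C, with a median of 61.0% against 40.5% at RARB and 47.1% over all regions. The median GC content of regions with a peak was 48.4% to 49.5% in the DMSO libraries, 47.8% to 48.6% in RA, 46.3% to 48.1% in PB and 45.2% to 46.3% in PB+RA. After centring in GC classes, 3 RXRA regions were called decreased with PB, 6 with PB+RA and 3 with RA. The shares of all regions called after this centring are not given here.

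The 3 RXRA regions called decreased with RA were the long ones over the gene body and its 3′ end. The first of them, chr9:137228865-137265036, had a mean enrichment of 4.90 ± 1.19 in DMSO, 2.06 ± 0.277 in PB, 2.55 ± 0.265 in RA and 1.70 ± 0.479 in PB+RA (SD, n = 4). All libraries with any drug were below all DMSO libraries. The log2 difference was -0.71 with RA (limma, adjusted p = 0.010), -0.93 with PB (adjusted p = 0.0037) and -1.12 with PB+RA (adjusted p = 9.74e-05).

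Summed over the 2 start-site regions of RXRA, the enrichment-weighted length was 163, 129, 90.4 and 155 kb in DMSO, 18.2, 28.6, 30.3 and 26.1 kb in PB, 86.4, 71.4, 113 and 103 kb in RA, and 18.4, 27.7, 21.6 and 49.0 kb in PB+RA. The log2 difference was -2.32 ± 0.26 with PB (limma, adjusted p = 3.19e-05), -2.23 ± 0.26 with PB+RA (adjusted p = 3.97e-06) and -0.51 ± 0.26 with RA (adjusted p = 0.24). After centring in GC classes these were -1.58 (adjusted p = 0.00036), -1.62 (adjusted p = 2.83e-05) and -0.63 (adjusted p = 0.059). Without DMSO replicate 3 they were -2.50 (adjusted p = 2.58e-05), -2.41 (adjusted p = 2.69e-06) and -0.68 (adjusted p = 0.092). The decrease at the RXRA start sites was thus called with PB and PB+RA in each of these fits.

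The 22 distal regions of RXRA summed to 654 ± 235 kb in DMSO, 261 ± 18.2 kb in PB, 388 ± 23.8 kb in RA and 195 ± 49.1 kb in PB+RA (SD, n = 4). The log2 difference was -1.24 with PB (limma, adjusted p = 0.00125), -1.69 with PB+RA (adjusted p = 1.32e-05) and -0.67 with RA (adjusted p = 0.047). The call with RA was lost when any 1 of DMSO replicates 1, 2 and 4 or any 1 RA library was left out, with values from -0.49 to -0.70. Without DMSO replicate 3, which at 352 kb was below the 599 to 898 kb of the others, the differences were -1.51 with PB, -1.96 with PB+RA and -0.94 with RA (adjusted p = 0.00062). PB+RA was below RA by -1.02 (adjusted p = 0.00465), which after centring in GC classes was -0.46 (adjusted p = 0.0854). Of the 24 RXRA regions, 15 had enough peaks in PB or PB+RA, and the others, all distal, entered through DMSO or RA. That choice favours DMSO and RA, and no fit was made without those regions. The differences of PB and PB+RA on this distal sum are therefore not read as tests.

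Among single distal RXRA regions, the largest fall in concentration was -2.17 with PB at the short region chr9:137129902-137130235, where 2 DMSO and 1 RA library had a peak. At chr9:137119458-137124197 the concentration differed from DMSO by -1.08 in PB, -0.87 in RA and -1.82 in PB+RA, and limma called PB+RA (-1.48, adjusted p = 0.0025) and PB (-1.16, adjusted p = 0.039). The highest positive differences, both with RA, were 0.81 at chr9:137373682-137373889 and 0.48 at chr9:137166984-137170717, and neither region was called in any comparison.

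The 2 combined-treatment contrasts share libraries with those above, so each is given by its own counts. Against RA, PB+RA had 18 of the 63 receptor regions decreased and 0 increased by limma (9 at RXRA, 7 at RARB and 2 at RARG), where 5.91% of all regions were decreased and 8.64% increased. Of the 20 RARB regions with enough peaks in PB+RA, 2 were among the decreased ones, and of the 13 such RXRA regions, 7 were. After centring in GC classes, 11 receptor regions were decreased, all at RARB. Against PB, PB+RA had 14 increased (12 at RARB, 1 at RARA and 1 at RARG), where 11.1% of all regions were increased, and 1 decreased, at RXRA, where 5.36% of all regions were. Of the 34 RARB regions, 10 had enough peaks in DMSO or PB, and the others entered through RA or PB+RA. That choice favours PB+RA over PB, so the count of 12 at RARB is not read as a result.

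The length of chromatin under peaks was compared with no scaling and no peak height. In the RARB regions 15.6 to 19.7 kb lay under peaks in DMSO, 16.1 to 23.3 kb in PB, 69.6 to 85.2 kb in RA and 39.9 to 63.5 kb in PB+RA. RA was above DMSO, PB+RA above DMSO and PB, and PB+RA below RA in every library, each at the exact permutation p of 0.0286 (two-sided), the smallest the test can give with 4 libraries against 4 (adjusted p = 0.0476 over 20 tests). Of the 34 RARB regions, 13 entered the set through peaks in RA alone, and 10 had enough peaks in DMSO or PB. That choice favours RA over the other groups, and PB+RA over DMSO and PB. These RARB p-values are therefore not read as tests. In the RXRA regions 97.2 to 162 kb lay under peaks in DMSO, 41.9 to 55.9 kb in PB, 103 to 123 kb in RA and 36.2 to 81.7 kb in PB+RA. PB and PB+RA were each below DMSO in every library (exact permutation p = 0.0286, adjusted 0.0476), RA was not distinguished from DMSO (exact p = 0.14), and the low DMSO value was that of replicate 3, with 160 to 162 kb in the other libraries. Without it the mean difference from DMSO was -48.4 kb with RA instead of -32.4, and -112 kb with PB. Of the 24 RXRA regions, 15 had enough peaks in PB or PB+RA. The others entered through DMSO or RA, which favours those groups. The RXRA p-values of PB and PB+RA are therefore not read as tests either.

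In the RARA regions 50.8 to 53.7 kb of 59.8 kb lay under peaks in DMSO and 56.1 to 59.0 kb in RA (exact permutation p = 0.0286, adjusted 0.0476). In the RARG regions the range was 11.8 to 17.9 kb in DMSO, 9.72 to 13.3 kb in PB, 19.2 to 22.6 kb in RA and 12.4 to 16.3 kb in PB+RA. RA was above DMSO and PB+RA below RA in every library at RARG (exact permutation p = 0.0286 for each), and PB+RA was not distinguished from DMSO (exact p = 0.54).

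Per base, the start-site regions of the 4 receptor genes had different levels in DMSO. RARA was highest at 8.61 ± 1.17, and its lowest library (7.47) was above every library of the other genes. The RARG regions (4.82 ± 0.769 and 4.82 ± 0.941) and those of RXRA (3.89 ± 1.15 and 3.69 ± 1.23) overlapped, and the induced RARB region, at 0.490 ± 0.322, and the most upstream one, at 0.270 ± 0.411, were the lowest (SD, n = 4). In PB+RA the same RARB region was at 6.20 ± 1.54, next to the internal RARG region at 7.03 ± 0.489 and above the RXRA regions at 0.867 ± 0.535 and 0.742 ± 0.369. RXRG, whose product is a retinoid X receptor of restricted expression, had its nearest peak 68.7 to 153 kb from its start site, depending on the library, and its nearest region, at MGST3, lay 152 kb away.

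Genes of the retinoid pathway were described on their start-site sums, over 13210 genes. Of these genes, 5.22% were called increased and 4.68% decreased with RA, 3.94% and 7.77% with PB, and 12.5% and 17.2% with PB+RA. Of 16 genes for the handling of retinoic acid, 9 had a start-site region, of which 5 were called increased with RA, 4 with PB+RA and none with PB (1 of the 9 had an unadjusted p under 0.05 with PB). ALDH1A3, whose enzyme makes retinoic acid, was called decreased with PB (-1.74, limma adjusted p = 0.0494) and PB+RA (-1.74, adjusted p = 0.0238), and no gene of the list was called decreased with RA. The median log2 difference of the list was 1.44 with RA, 1.05 with PB+RA and -0.13 with PB, against -0.01, -0.06 and -0.08 over all genes.

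CYP26A1 and CYP26B1, whose enzymes degrade retinoic acid, and DHRS3, which reduces retinal to retinol, had the largest concentration differences with PB+RA, at 5.65, 4.53 and 4.40. CYP26A1 rose by 6.44 with RA and 7.28 with PB+RA on the summed log2 scale (limma, adjusted p = 8.45e-13 and 9.16e-14). CYP26B1 rose by 1.54 with RA (adjusted p = 0.036) and by 4.44 with PB+RA (adjusted p = 1.91e-06), and DHRS3 by 5.73 and 5.72. With PB alone these 3 genes were at 0.16, 0.00 and 0.10 on the summed scale and none was called. Reads under no called peak count as 0 in these sums, and the concentration differences with PB were 0.65, 0.35 and 0.07. CRABP1 and CRABP2, genes of cytoplasmic retinoic acid binding proteins, were called increased with RA (1.84 and 1.44). With PB+RA, CRABP2 was called (1.21) and CRABP1 was not (0.40, limma adjusted p = 0.37).

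**Figure D4:**
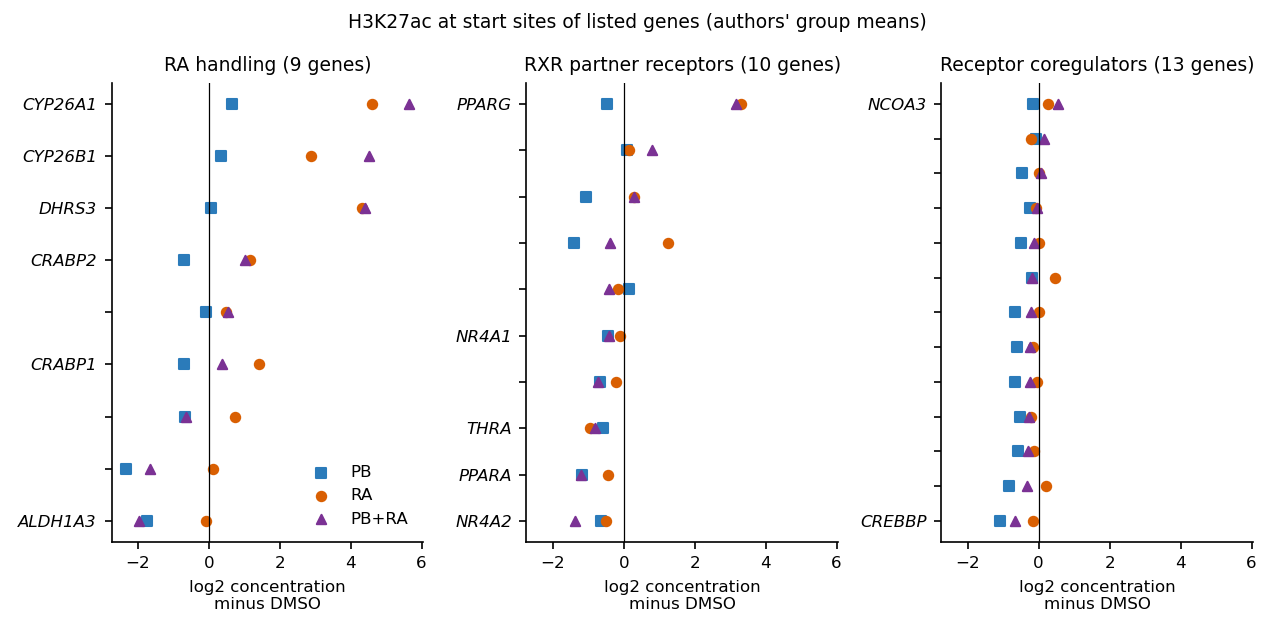
Difference in the authors' mean log2 concentration from DMSO (horizontal axes) at the start site of listed genes with a start-site region, for PB, RA and PB+RA: 9 genes that handle retinoic acid, 10 receptors that pair with RXRs, and 13 coregulators, with genes whose values the text gives labelled. CYP26A1, CYP26B1, DHRS3 and PPARG stand far to the right with RA and PB+RA, and with PB no listed gene is above 1.

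Of 13 receptors that can pair with RXRs, 10 had a start-site region. With RA, PPARG, a fatty acid receptor gene, was called increased (4.15, limma adjusted p = 0.00012) and THRA, a thyroid hormone receptor gene, decreased (-0.57, adjusted p = 0.036). With PB none was called in either direction by limma (2 had an unadjusted p under 0.05), and with PB+RA 1 was increased (PPARG, 4.12, adjusted p = 6.95e-05) and 4 decreased. The decreased ones were THRA, NR4A1, NR4A2 (-0.86, adjusted p = 0.00020) and PPARA (-0.99, adjusted p = 0.012). The list's median with PB+RA was -0.59.

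Of 14 coregulator genes, 13 had a start-site region, and 1 was called. That was NCOA3, a coactivator gene, which rose with PB+RA (0.49, limma adjusted p = 0.0091). CREBBP, the gene of an acetyltransferase, had a concentration difference of -0.66 with PB+RA and was not called (-0.73, adjusted p = 0.080). By limma none of the 13 was called with RA, where 0 had an unadjusted p under 0.05, or with PB, where 1 did.

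The genes whose start-site sums followed each receptor most closely over the 16 libraries were named by Pearson correlation among 12140 genes, as a description over libraries that share groups and depth. For RARA they included FAM163A and PTGIR (r = 0.96 for each). For RARB they were DKK2, CRB1 and CRABP2 (0.95 for each), for RARG TNFRSF1A, ANGPTL4 and PSAPL1 (0.95, 0.95 and 0.93), and for RXRA GSDMD, BCL7C and EXOC3L4 (0.97, 0.96 and 0.95).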

How the data were processed

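H3K27ac ChIP-seq of SK-N-BE(2)C cells was analysed from the authors' files. Per the submitters' processing notes, reads were trimmed with fastp 0.12.4, aligned to hg19 with Bowtie2 2.4.4, peaks called per library with MACS2 2.2.7.1 (broad, against input) and regions compared with DiffBind 3.4. The peak lists give the deposited ratio (fold enrichment over input) and the deposited −log10 q of each peak. The region tables give the authors' mean log2 concentration of each group. Their fold, p-value and FDR columns, the authors' own comparisons, were not used. Read depth per library is unknown here, and a region with no peak need not lack reads. The normalization would hide a change in total H3K27ac.

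Groups and replicate numbers came from sample titles. In the study's methods these are biological replicates. Coordinates are hg19, and genes are GENCODE release 44 lifted to GRCh37 (78714 protein-coding start sites). A start-site region lies within 3 kb of a start site of its gene, others are distal. Of the 34 RARB regions, 22 were taken by gene body alone. Library scaling used the median of 26508 regions with a peak in all 16 libraries. The filter, a peak in 2 or more libraries of any group, removed none of the 92108 regions. limma 3.58.1 (R 4.3.3, trend and robust) was fitted with group as the only term, two-sided, and tested on simulated data. Summed values were fitted likewise with a pseudocount of 1. Kb under peaks were compared by exact permutation over 70 arrangements (scipy 1.17.1).

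Regions named were each gene's start-site region of highest mean concentration, other start-site regions called in any comparison, and the 2 distal regions with the largest increase and decrease per gene. Pathway genes were named by the 3 largest concentration differences with PB+RA in each list, and the other genes named there were chosen after their values were seen. Some listed genes are not reported here and were left out of the list counts. The members and lists were chosen with earlier results of these data known. Same-numbered libraries deviated together in RA and DMSO (r = 0.156 to 0.316 over regions) and in PB+RA and PB (0.145 to 0.427). Some libraries of different number did so as closely (DMSO replicate 1 and RA replicate 2, 0.32, and PB replicate 4 and PB+RA replicate 3, 0.415). Others deviated in opposite directions (DMSO replicate 1 and RA replicate 3, -0.284). The values thus do not show that the numbers pair the libraries. A fit with the replicate number as a block was an alternative. Alternatives covered the pseudocount, filters, scaling, peak threshold, replicate block, GC content and leaving out each library. Those for summed values were chosen after seeing the data.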

Additional observations from a re-analysis of the deposited data

Results flagged for a closer look

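Of 72 groups of 4 libraries examined, 8 held a library far from the other 3, where chance gives about 5% of groups. At RXRA, DMSO replicate 3 had 97.2 kb under peaks against 160 to 162 kb in the others, and in the region at the first start site (from 137205393) DMSO replicate 4 had an enrichment of 5.51 against 2.92 to 3.32 and PB+RA replicate 4 had 1.29 against 0.492 to 0.618. PB replicate 4 stood apart at RARA, with 50.9 kb under peaks against 54.2 to 54.3, at the RARG start sites, with a sum of 106.6 kb against 87.2 to 89.4, and in the RARG region from 53606616, with 4.57 against 3.89 to 3.97. RA replicate 2 had a sum of 2.78 kb at the distal RARA region, against 0 to 0.446, and PB replicate 3 had 3.79 kb at the distal RARG region, against 0 to 0.491.

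The effect of PB on the distal RARB sum differed with and without RA, by -1.32 on the log2 scale (limma interaction, adjusted p = 0.0066). The call was lost without the 5 regions nearest TOP2B, which held most of the PB gain (-1.58, adjusted p = 0.0777), with no centring of libraries (-1.06, adjusted p = 0.28) and with bases alone (-0.98, adjusted p = 0.12). The sum also holds 13 regions that entered through peaks in RA alone, which favours RA over PB+RA.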

How the results depend on the processing

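Of 127 recomputed counts over the receptor regions, 104 stayed within 1.5 times the value reported, and no called difference changed sign. Some differences that were not called did, among them the PB+RA difference at the RARB region from 25486292 in GC classes and the PB difference at RARA with no centring. The counts called were 26 (RA), 15 (PB), 28 (PB+RA), 18 (PB+RA against RA), 15 (PB+RA against PB) and 0 (interaction). With peaks of −log10 q of at least 5, where 19 receptor regions could be tested, they were 8, 4, 12, 4, 3 and 1. With centring in GC classes, 4 (PB), 14 (PB+RA), 11 (PB+RA against RA), 9 (PB+RA against PB) and 2 (interaction) were called. Shares of bases under peaks gave 9 for PB+RA against RA and 7 for PB+RA against PB. Restricting the fit to regions where some group had 4 peaks of 4 gave 2 for the interaction, and fitting the compared libraries alone gave 9 for PB. With a library left out, the PB count ran from 8 to 18 (9 without DMSO replicate 1, DMSO replicate 4 or PB replicate 1, and 8 without PB replicate 2). The cause of these moves was not tested, apart from fewer regions or libraries.

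The counts past the concentration fold (48 with RA and 40 with PB) were 31 and 21 at a fold of 1, and PB gave 25 within GC classes. Nearest start site alone assigned 40 of the 63 regions. With the stricter peaks, the gain in kb under peaks at RARB with PB+RA was 16.4 kb (exact p = 0.057) instead of 34.7 kb, and the loss at RXRA with RA was -67.3 kb (exact p = 0.029) instead of -32.4 kb. With the replicate block the counts were 25, 17, 29, 18, 15 and 0, and the block changed no count by over 1.5 times. The other same-numbered libraries did not all deviate together (r from 0.0571 for PB and DMSO, -0.189 for PB+RA and DMSO, 0.0367 for PB+RA and RA). The deposited peak threshold limits all values per library, since reads below it count as 0.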
